A study of Mus musculus with 2 samples.

Results

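The S100 calcium-binding protein genes were followed in cells sorted from the Peyer's patches of mice, which are the lymphoid follicles of the small intestine. The family was taken as 10 genes, S100a1, S100a3, S100a4, S100a6, S100a8, S100a9, S100a10, S100a11, S100a13 and S100a16, of 24813 named genes on the array, and every non-control probe carrying 1 of these names was used, which gave 12 of 56602 probes. The S100A4-positive cells and the S100A4-negative cells both came from C57BL/6 mice transgenic for S100A4-GFP, a green fluorescent reporter for S100A4, and were sorted after enzyme digestion of the patches. There was 1 sample per group, measured on its own 1-colour array, and the question was how the expression profiles of the positive and the negative cells differ. Both groups therefore carried the same transgene, no other gate of the sort than S100A4 is stated, and the age of the mice, the number of animals per sample and the extent of the reporter's promoter are not given in the sources used here. Since each group has 1 array, no difference below has a replicate or a p-value, and errors are those that the scanner software gave for single spots.

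S100 proteins are small proteins with a pair of EF hands, helix-loop-helix folds that bind calcium. Most work as dimers that change shape when calcium binds and then attach to other proteins, among them annexins, myosins and cytoskeletal proteins, and some are released from cells and act on receptors such as RAGE (gene Ager) and TLR4. S100A4, also called fibroblast-specific protein 1, is known from motile mesenchymal cells and from leukocytes, whereas S100A8 and S100A9 together form calprotectin, an abundant protein of neutrophils and monocytes that binds metals and restricts microbes.

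Since each value below rests on a 60-base probe, the sequences of the probes behind the results come first, 5′ to 3′, as given in the array files. Those of S100a1, S100a6 and S100a8 are shown whole because they lie in the same part of the coding sequence and yet gave opposite differences. Their capitals mark 18 bases around the end of the calcium-binding loop of the second EF hand, found as an open reading frame over the whole probe that holds a shared residue pattern of S100 loops there. For S100a4 and S100a3, whose probes are neighbours on the chromosome, the first 30 bases are given, without capitals, because no such pattern was found in them. The array files give these positions on mm9.
S100a1, chr3:90315191-90315250, minus strand: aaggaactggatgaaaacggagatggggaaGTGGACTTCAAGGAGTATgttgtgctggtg
S100a6, chr3:90418160-90418219, plus strand: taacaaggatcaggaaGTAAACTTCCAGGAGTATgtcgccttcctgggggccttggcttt
S100a8, chr3:90473778-90473837, plus strand: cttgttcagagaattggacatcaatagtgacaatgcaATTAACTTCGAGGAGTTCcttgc
S100a4, chr3:90409842-90409902, plus strand: agtgttggggtgtagtttgccagtggggga
S100a3, chr3:90406396-90406455, plus strand: ccctttcaatctagacttgccaagttcttg
The exon or untranslated region in which a probe lies was not analysed here. The marked stretches differ in sequence between the genes, and each probe was read for its own gene only, since the brightness of different probes cannot be compared.

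The positive array had 31042 spots well above background (52.3% of 59305 without the controls) and the negative array 31595 (53.3%), and none was saturated. Each array was centred on the 75th percentile of its spots, and differences are log2 values of S100A4-positive minus S100A4-negative. All 12 S100 probes, and so all 10 genes, were well above background on both arrays, but 4 probes, those of S100a1, S100a3, S100a8 and the dimmer S100a16 probe, had a raw signal under 2.5 times the local background on at least 1 array. The direction of a small difference depends on this scale. Without scaling the median of all named genes moved to -0.62, against 0.02 on the percentile scale, and scaling on the E1A spike-in controls, foreign RNAs added during labelling, moved it to -2.50. Both scales move every difference by the same amount, -0.63 without scaling and -2.52 on the spike-in scale, so a gene that is higher by less than that turns direction there, or, where it is known only by a bound, has no direction left. By their median these controls were 3.69-fold brighter on the array of positive cells. How much RNA was labelled per array is not given here. Of all genes past 2-fold, 55.6% were higher in the positive cells on the percentile scale, 26.9% without scaling and 4.44% on the spike-in scale.

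S100a4, the gene behind the reporter and therefore a check of the labels, had a signal of 119341 ± 11934 on the S100A4-positive array, against 1057 ± 106 on the S100A4-negative array. The raw signal was 2094 times the local background on the positive array and 19.9 times on the negative array, so the transcript was also well detected in cells sorted as negative. The centred difference was 7.45 ± 0.20, or 175-fold, the 13th highest among 12951 named genes measured on both arrays. It was between 4.94 and 7.46 over the scales and background corrections tried, and positive in each. At the top of the intensity range the spike-in controls differed less between the arrays: the brightest of 7, at 147591 on the positive and 53672 on the negative array, differed by 1.46, whereas the median of the 7 was 1.88. The part of this in the S100a4 value was not tested.

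At their brightest probe, 7 of the 10 genes were higher by 2-fold or more in the positive cells and 3 were lower by 2-fold or more, so that none lay within 2-fold. The same sizes were passed by 21.4% (higher) and 17.0% (lower) of the 15245 named genes detected on 1 or both arrays, and by 17.7% and 16.4% of the 12951 genes detected on both. Without scaling 4 of the 10 were higher (beside 12.9% of all) and 3 lower (35.0%), and on the spike-in scale 4 were higher (3.87%) and 4 lower (83.2%). By probe, 8 of 12 S100 probes were higher by 2-fold or more, 3 were lower and 1 was within 2-fold, where 20.9% of 31583 probes were higher and 14.8% lower. The median difference of the 10 genes was 1.57, beside 0.02 for all named genes; it was 0.94 beside -0.62 without scaling, and -0.94, the other direction, beside -2.50 on the spike-in scale. S100a4 belongs to these counts although the sort was made on S100A4. At least 4-fold higher were 4 of the 10 genes, beside 7.53% of all genes measured on both arrays, and at least 4-fold lower was none, beside 4.13%.

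**Figure D1:**
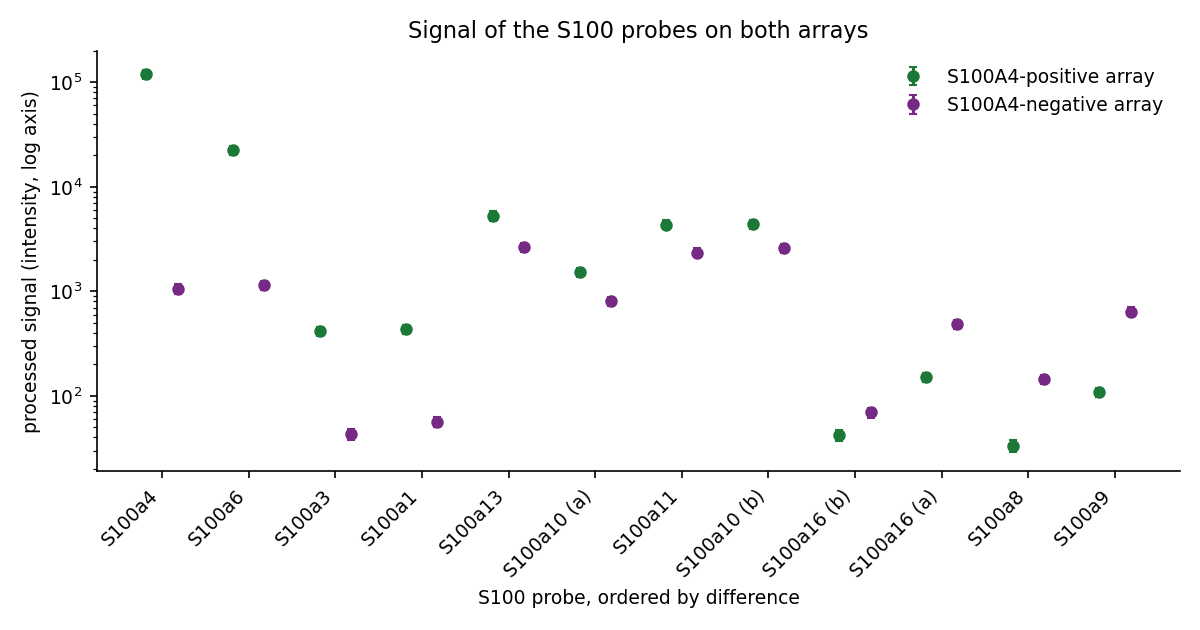
Processed signal (intensity, log axis) of each of the 12 S100 probes on the S100A4-positive array (green, left) and the S100A4-negative array (purple, right), with the scanner software's error for the spot; (a) and (b) are the probes of a gene in order of position. S100a4 read 119341 on the positive and 1057 on the negative array, and S100a8, S100a9 and S100a16 were brighter on the negative array; levels of different probes cannot be compared.

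The genes that stood highest after S100a4 were S100a6, S100a3 and S100a1. S100a6 encodes calcyclin, which binds the ubiquitin-ligase adaptor CacyBP and is abundant in fibroblasts and proliferating cells. Its signal was 22237 ± 2224 on the positive array and 1150 ± 115 on the negative array, a difference of 4.91 ± 0.20, the 165th highest. S100a6 was thus bright in the positive cells and clearly measured in the negative cells, at 19.8 times the local background.

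S100a3 encodes a protein known best from the hair cuticle. Its probe read 414 ± 41.5 on the positive array and 43.1 ± 5.41 on the negative array, a difference of 3.90 ± 0.23 (14.9-fold). S100a1, best known as a calcium sensor of heart and skeletal muscle, read 437 ± 43.9 on the positive array and 56.6 ± 6.60 on the negative array, a difference of 3.59 ± 0.22. For both genes the positive signal was modest, 8.52 and 8.32 times the local background, and the negative signal was close to background, at 1.97 and 2.26 times. With normexp background correction, which compresses dim signals, their differences were 2.72 and 2.55. Of the genes measured on both arrays, 1.27% stood above S100a6, 2.39% above S100a3 and 2.86% above S100a1. All of S100a4, S100a6, S100a3 and S100a1 remained above 0 on the spike-in scale, at 4.94, 2.39, 1.38 and 1.07.

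**Figure D2:**
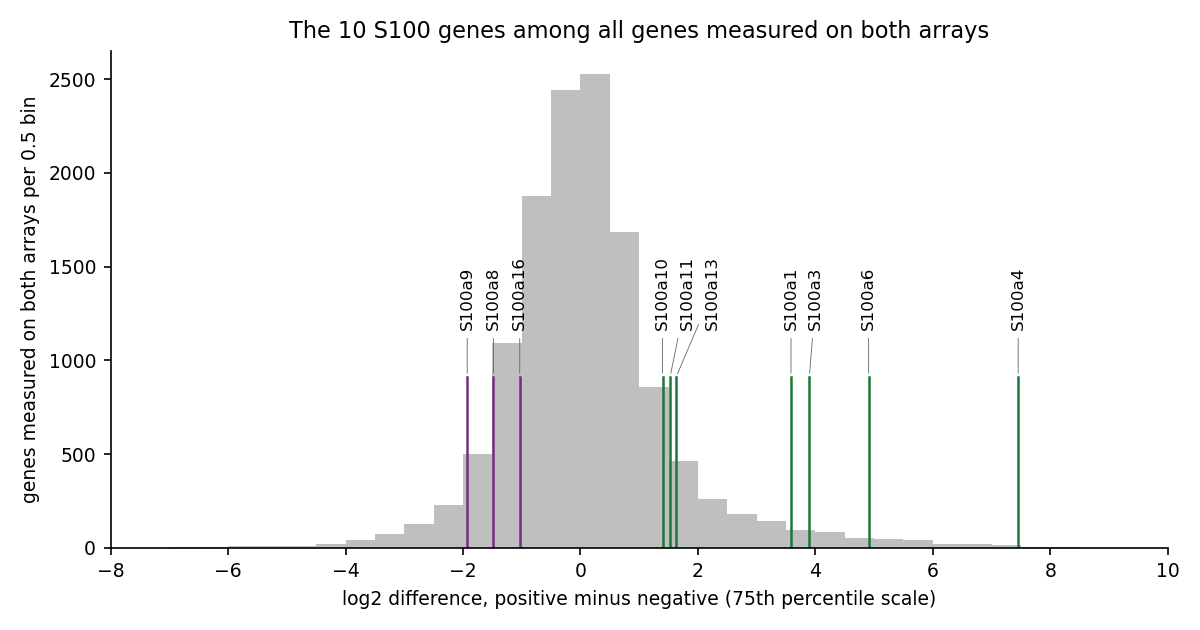
Number of genes measured on both arrays per bin of 0.5 (vertical axis) by log2 difference, S100A4-positive minus S100A4-negative, on the percentile scale (horizontal axis), with lines at the 10 S100 genes (green higher, purple lower). S100a4 (7.45), S100a6 (4.91), S100a3 (3.90) and S100a1 (3.59) stand in the upper tail, and S100a9 (-1.93), S100a8 (-1.48) and S100a16 (-1.03) are below 0; on the spike-in scale S100a10, S100a11 and S100a13 are below 0 too.

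S100a10, S100a11 and S100a13 were moderately higher and bright on both arrays. S100a10 encodes p11, the partner of annexin A2 that does not need calcium to bind it, and has a pair of probes that start 161 bases apart. The first read 1513 ± 151 on the positive array and 809 ± 81.0 on the negative array, and the second read 4365 ± 437 on the positive and 2571 ± 257 on the negative array. Their differences, 1.54 ± 0.20 and 1.40 ± 0.20, were 0.14 apart, less than the error of that gap (0.29).

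S100a11 encodes calgizzarin, a partner of annexin A1. It read 4351 ± 435 on the positive array and 2348 ± 235 on the negative array, a difference of 1.52 ± 0.20. S100a13, whose protein takes part in the release of FGF1 and interleukin-1 alpha from cells without a signal peptide, read 5285 ± 529 on the positive array and 2658 ± 266 on the negative array, a difference of 1.63 ± 0.20. The S100a13 probe is placed by the array files over 8370 positions (chr3:90319950-90328319, mm9), so its ends lie apart in the genome. These differences lay close together, between 2.63-fold and 3.09-fold, and by rank among the genes detected on both arrays they stood at 1300 for S100a13, 1413 for S100a11 and 1574 for the brighter S100a10 probe. They depended on the scale: without scaling they were 0.99 for S100a13, 0.89 for S100a11 and 0.90 and 0.76 for the S100a10 probes, all under 2-fold, and on the spike-in scale they were -0.89, -0.99, -0.98 and -1.12, the other direction.

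**Figure D3:**
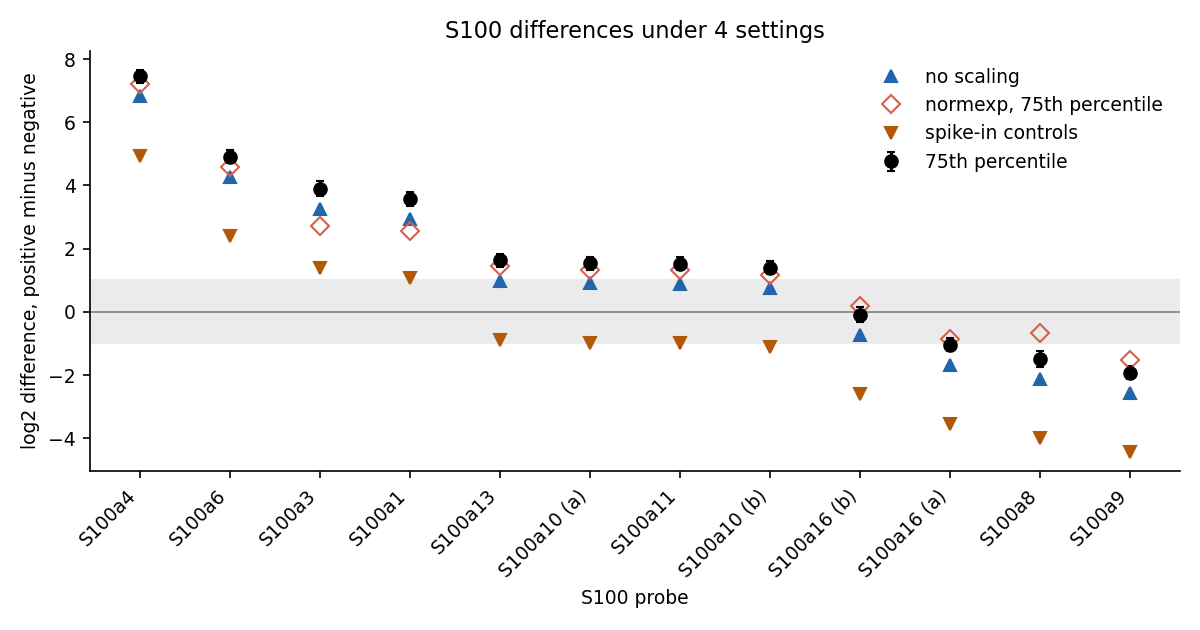
Log2 difference, S100A4-positive minus S100A4-negative (vertical axis), of the 12 S100 probes centred on the 75th percentile (black, with the scanner error), with normexp background correction (open diamonds), without scaling (blue triangles) and scaled on the spike-in controls (brown triangles); the grey band is 2-fold either way. S100a4, S100a6, S100a3 and S100a1 are above 0 and S100a8, S100a9 and the brighter S100a16 probe (a) below 0 in all 4, whereas S100a13, S100a11 and S100a10 fall below 0 on the spike-in scale and the dimmer S100a16 probe (b) is above 0 with normexp.

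The calprotectin genes were lower in the positive cells. S100a9 read 108 ± 11.4 on the positive array and 638 ± 63.9 on the negative array, a difference of -1.93 ± 0.21, or 3.81-fold lower. S100a8 read 33.4 ± 4.62 on the positive array and 145 ± 14.9 on the negative array, a difference of -1.48 ± 0.25, or 2.79-fold lower. Both genes were dim, with S100a8 at 1.80 and S100a9 at 3.07 times the local background on the positive array, and S100a8 at 3.66 and S100a9 at 11.1 times on the negative array. S100a9 was at least 2-fold lower under every scale and background correction, from -1.51 to -4.44, but S100a8 was at -0.67, under 2-fold, with normexp.

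Other neutrophil genes did not share 1 direction with them on the percentile scale, whereas on the spike-in scale none was at least 2-fold higher. Of 12 neutrophil markers other than S100 genes, 10 were well above background on at least 1 array. Of these 5 were at least 2-fold higher (21.4% of all named genes), 1 was at least 2-fold lower (17.0%) and 4 were within 2-fold. Among the 5, Mpo, Mmp8 and Ltf were dim, at 64.0, 41.2 and 27.2 on the positive array. They were seen on that array only and were counted at a bound. Ly6g and Lcn2 were measured on both arrays and were higher by 1.73 ± 0.21 and 1.18 ± 0.27. Ly6g read 238 on the positive and 111 on the negative array. On the spike-in scale Ly6g was at -0.78 and Lcn2 at -1.34. On the spike-in scale 6 of the 10 were at least 2-fold lower, beside 83.2% of all named genes, and the median of the list was -1.56, against 0.96 on the percentile scale. Their summed signal before centring was 35914 on the positive array and 36765 on the negative array. Nearly all of it came from Csf3r, the G-CSF receptor gene, at 35321 on the positive and 36032 on the negative array. After centring the log2 sums were 6.97 on the positive and 6.37 on the negative array. Retnlg, a resistin-like gene of neutrophils, was the lower one, with a signal of 11.8 on the positive array, where it was not well above background, and 391 on the negative array, which puts it past 2-fold even at its bound. The highest was the myeloperoxidase gene Mpo, which was not detected above background in the negative cells and was at least 5.75-fold higher in the positive cells, a bound that came to 0.01 (log2) on the spike-in scale. The defining markers Cxcr2 and Ngp were well above background on neither array. In samples of many cells, fewer cells of a type and less RNA per cell cannot be told apart, and the part of neutrophils in the S100a8 and S100a9 values was not tested.

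S100a16, whose protein is found in many tissues, had probes that disagreed. The probe at chr3:90346529-90346588 (mm9) read 152 ± 15.5 on the positive array and 482 ± 48.3 on the negative array, a difference of -1.03 ± 0.21, at the edge of 2-fold. The probe at chr3:90346875-90346934, which starts 346 bases further along, read 42.1 ± 5.32 on the positive array and 69.4 ± 7.72 on the negative array, a difference of -0.09 ± 0.24. The gap between them, 0.95, was larger than its scanner error of 0.32. The first probe was lower on every scale but came to -0.85, under 2-fold, with normexp, and the second was at 0.19, the other direction, with that correction, so on the percentile scale a 2-fold difference of S100a16 rests on 1 probe and 1 background correction. On the spike-in scale both probes were past 2-fold lower, at -3.55 and -2.60, where 83.2% of all named genes were.

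All 10 genes lie on chromosome 3, and their differences followed no single direction along it. The probes of S100a3, S100a4 and S100a6 lie within 12 kb: that of S100a3 starts 3.45 kb before that of S100a4, and that of S100a6 starts 8.32 kb after it. These 3 held the highest differences of the family, although S100a3 (3.90 ± 0.23) was close to the more distant S100a1 (3.59 ± 0.22). S100a8 and S100a9, with probes 63.9 and 86.7 kb after that of S100a4, were both lower. On the other side, S100a16, with its brighter probe 63.3 kb before that of S100a4, was lower, while S100a13 and S100a1, at 89.9 and 94.7 kb before it, were higher by 1.63 and 3.59. S100a11 and S100a10, about 2920 and 2959 kb away, were higher by nearly the same amount, 1.52 and 1.40 at their brightest probes. No named gene outside the S100 family had a probe between those of S100a1 and S100a9, where those of S100a14, S100a5 and S100a7a also lie. With 250 kb added on each side there were 10 named genes outside the family, of which 8 were measured, with differences between -1.40 and 0.08. Of the 8, none was at least 2-fold higher and 2 were at least 2-fold lower, beside 21.4% and 17.0% of all named genes.

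**Figure D4:**
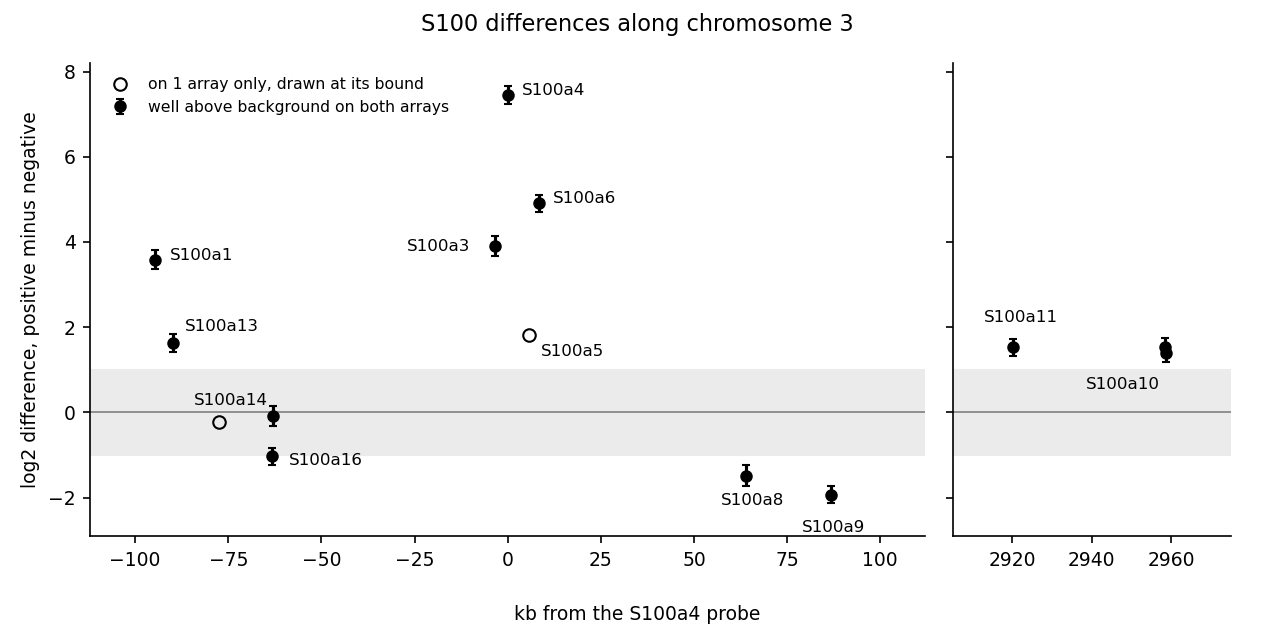
Log2 difference, S100A4-positive minus S100A4-negative on the percentile scale (vertical axis), of S100 probes on chromosome 3 by distance in kb from the S100a4 probe (horizontal axis, in a separate panel for S100a11 and S100a10), with the scanner error; open circles are genes well above background on 1 array only, drawn at their bound, and the grey band is 2-fold either way. The highest values are those of S100a4, S100a6 and S100a3, within 12 kb, with S100a5 between S100a4 and S100a6 at its bound (1.82). S100a8 and S100a9 are below 0 to their right. On the spike-in scale S100a13, S100a11 and S100a10 are below 0 too.

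The upstream sequences of S100a4 and S100a6, the genes with the largest differences of the family, are shown from the RefSeq table on build GRCm38.p6, as the 250 bases before the annotated start on the plus strand. Capitals mark any of the motifs searched on both strands, the TATA box (TATAAA), the CCAAT box (CCAAT), the GC box (GGGCGG) and the AP-1 site (TGANTCA).
S100a4, chr3:90603520-90603769: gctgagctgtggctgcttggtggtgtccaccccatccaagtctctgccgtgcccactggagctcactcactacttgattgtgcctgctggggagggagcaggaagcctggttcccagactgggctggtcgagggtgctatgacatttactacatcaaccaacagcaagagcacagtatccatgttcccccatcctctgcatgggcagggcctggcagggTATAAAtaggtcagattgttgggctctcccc
S100a6, chr3:90612644-90612893: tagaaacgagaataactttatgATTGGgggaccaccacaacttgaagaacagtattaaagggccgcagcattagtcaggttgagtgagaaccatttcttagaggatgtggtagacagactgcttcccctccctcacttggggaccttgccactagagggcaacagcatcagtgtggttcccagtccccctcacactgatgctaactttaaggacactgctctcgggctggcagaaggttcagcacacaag
The S100a4 window held a TATA box and the S100a6 window a CCAAT box on the opposite strand, and no other match to the motifs searched. Of the 10 genes 9 matched the table, S100a10 being the exception. The TATA box was in at least 1 window of 3 of them (S100a3, S100a4 and S100a8), the GC box of 4, the CCAAT box of 2 and the AP-1 site of 2 (S100a11 and S100a16). Among all 32851 windows of this length, 12.4% held the TATA box, 32.7% the GC box, 33.8% the CCAAT box and 6.75% the AP-1 site. These shares are per window, whereas the S100 counts are per gene over any of its windows, so they are not directly comparable. The TATA box was present in windows of genes that were higher (S100a3, S100a4) and of 1 that was lower (S100a8).

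Of 6 S100 genes outside the 10, 3 were well above background on at least 1 array. S100a5, whose probe lies between those of S100a4 and S100a6, read 36.7 ± 5.57 on the positive array and 3.86 ± 3.87 on the negative array, where it was not well above background, which makes it at least 3.52-fold higher, a bound that gave no difference on the spike-in scale. S100g encodes calbindin-D9k, a calcium-binding protein of enterocytes. It read 165 ± 16.8 on the positive array and 87.2 ± 9.33 on the negative array, a difference of 1.55 ± 0.21. On the spike-in scale S100g was at -0.96. S100a14, an epithelial member of the family, read 14.2 ± 4.05 on the positive array, where it was not well above background, and 28.6 ± 5.63 on the negative array, a bound within 2-fold on the percentile scale and past 2-fold lower on the spike-in scale (-2.74). S100a7a, S100b and S100z were well above background on neither array.

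The genes of known S100 partners moved in both directions. Of 28 partner genes 26 were measured, and of these 9 were at least 2-fold higher, 3 at least 2-fold lower and 14 within 2-fold, with a median of 0.54; the shares of all named genes past 2-fold are 21.4% higher and 17.0% lower. On the spike-in scale 2 were higher at their brightest probe, Plau (2.02) and Tgm2 (1.11), and 18 (69.2%) lower, beside 3.87% and 83.2% of all named genes. Gfap and Syt1 were well above background on neither array.

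Among the annexins, calcium-dependent membrane-binding proteins, Anxa1, the partner of S100A11, read 2466 ± 247 on the positive array and 382 ± 38.3 on the negative array, a difference of 3.32 ± 0.20. Anxa5 differed by 3.20 ± 0.20. Anxa2, the partner of S100A10, read 14209 ± 1421 on the positive array and 13174 ± 1317 on the negative array at its brightest probe, a difference of 0.74 ± 0.20, and its 3 probes ranged up to 2.68. Anxa11 and Anxa6 were within 2-fold, at 0.97 and 0.35. Ahnak, the large scaffold protein bound by the S100A10 and annexin A2 complex, was higher by 3.08 ± 0.20, with its 3 probes between 1.77 and 4.56. On the spike-in scale Anxa1, Anxa5 and Ahnak were within 2-fold, at 0.81, 0.68 and 0.56. Anxa2, Anxa11 and Anxa6 were lower there, at -1.77, -1.55 and -2.17.

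Among the partners with extracellular roles, Plau encodes urokinase, the activator of plasminogen. It read 373 ± 37.5 on the positive array and 24.9 ± 4.31 on the negative array, a difference of 4.54 ± 0.29. Its other detected probe gave 2.985, which the shift of -2.52 on the spike-in scale takes under 2-fold. Plat, the gene of tissue plasminogen activator, and Fgf1 were detected above background in the positive cells only and were at least 3.76-fold and 3.91-fold higher there, though neither bound gave a difference on the spike-in scale. Il1a, the interleukin-1 alpha gene, differed by 3.13 ± 0.30 (0.61 on the spike-in scale). Tgm2, a transglutaminase that crosslinks proteins, differed by 3.62 ± 0.20. Of the receptors, the fatty acid receptor gene Cd36 was higher by 1.40 ± 0.21 (-1.12 on the spike-in scale), whereas Bsg was at 0.45, Tlr4 at 0.40 and Ager at 0.63 at their brightest probes; detected Tlr4 probes ranged down to -1.03 and Ager probes down to -2.04.

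Among the other intracellular partners, Myh9, the non-muscle myosin heavy chain that S100A4 binds, read 19246 ± 1925 on the positive array and 36085 ± 3608 on the negative array, a centred difference of -0.27 ± 0.20. Myh14, another non-muscle myosin gene, was lower, at -2.48 ± 0.23, as were Fkbp5 at -1.66 ± 0.20 and Trp53, the p53 gene, at -1.18 ± 0.21. Cacybp, the partner of S100A6, was at -0.60 ± 0.20. Mdm2 (0.37), Sugt1 (0.29), Iqgap1 (-0.14), Ryr1 (-0.44), Capn2 (0.84) and Ppp5c (-0.86) were within 2-fold, although another Capn2 probe gave 3.06 and another Iqgap1 probe 1.21. The other detected Fkbp5 probe was within 2-fold, at -0.55.

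**Figure D5:**
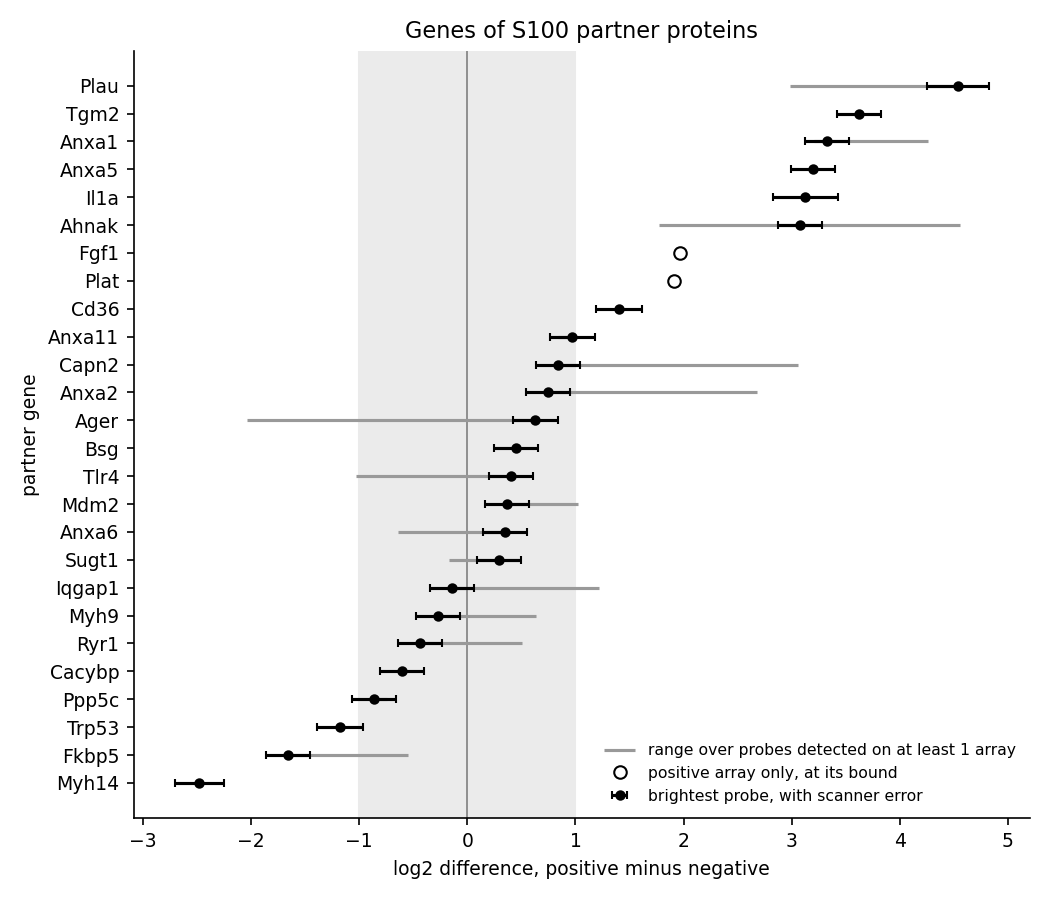
Log2 difference, S100A4-positive minus S100A4-negative on the percentile scale (horizontal axis), of 26 genes of S100 partner proteins (vertical axis): points are the brightest probe with its scanner error, grey lines the range over probes detected on at least 1 array, open circles genes seen on the positive array only at their bound, and the grey band 2-fold either way. Plau, Tgm2, Anxa1, Anxa5, Il1a and Ahnak lie near or above 3, Anxa2 and Myh9 are within 2-fold, and Myh14 is lowest at -2.48; on the spike-in scale 18 of the 26 (69.2%) are at least 2-fold lower, beside 83.2% of all named genes.

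Markers of several cell types differed along with the S100 genes on the percentile scale, and their medians depended on it. On the spike-in scale the median was 2.96 for macrophages and monocytes and 1.66 for dendritic cells, but 0.94 for endothelium, under 2-fold, and -0.39 for fibroblasts, the other direction, with 3 fibroblast markers at least 2-fold higher and 4 lower. All named genes had a median of -2.50 there, with 3.87% at least 2-fold higher and 83.2% lower. The same medians were 5.47, 4.17, 3.46 and 2.04 on the percentile scale, on which the counts that follow were made. The background for these counts is 21.4% of all named genes past 2-fold upward on the percentile scale, and 17.0% past it downward. Of 12 macrophage and monocyte markers 11 were at least 2-fold higher, the 12 ranging between 0.47 for Itgam and 7.13 for C1qa. Their summed signal was 64178 on the positive array and 6232 on the negative array, where Itgam gave 4212. Of 10 dendritic cell markers 9 were measured and 8 were higher, 4 of them seen on the positive array only. Their sums were 51755 on the positive and 23202 on the negative array. Irf8, within 2-fold at 0.62, gave 19691 of the positive and 19836 of the negative sum. Of 12 fibroblast markers 11 were measured, 4 of them seen on the positive array only. Of the 11, 7 were higher, led by Fn1 (5.59), and 1, Col1a1, was lower. Col1a2 (-0.78) and Col3a1 (-0.51) were below 0 but within 2-fold. The sums were 32787 on the positive and 11932 on the negative array, mostly from Thy1 (21373 and 8079) and Vim (9486 and 3364). The defining marker Pdgfra was well above background on neither array and Col1a1 not on the positive array. Of 8 endothelial markers 7 were measured and 5 were higher, 4 of them seen on the positive array only. Pecam1 (-0.25) and Egfl7 (0.98) were within 2-fold, and Tek was well above background on neither array. For the 3 endothelial markers measured on both arrays the median was 0.98, under 2-fold. The endothelial sums were 1258 on the positive and 426 on the negative array. All 10 B cell markers were lower, with sums of 6030 on the positive and 194585 on the negative array, as were 7 of 8 T cell markers, with sums of 3219 on the positive and 50594 on the negative array. Of 10 enterocyte markers 8 were lower and 1, Cdh1, was higher, with sums of 1234 on the positive and 14256 on the negative array. The part of cell composition in the S100 differences was not tested.

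Only named genes measured on both arrays were searched for the differences closest to that of S100a4. The closest were Sirpb1b (7.35), Il22ra2 (7.34), Klrb1b (7.62), Klk1 (7.19) and Prr29 (7.72), with gaps of 0.10 to 0.27. This likeness rests on 1 difference between 2 arrays. The signals of these genes were 5310, 8044, 4591, 6708 and 2599 on the positive array and 50.4, 77.3, 36.3, 71.1 and 19.1 on the negative array. Because near-identical relatives of Sirpb1b, Klrb1b and Klk1 exist, a probe may also read those, and these values are uncertain.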

How the data were processed

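RNA of both sorted fractions was labelled with Cy3 by low-input amplification, per the labels' protocols, for an Agilent mouse array (design 074809). The scans were read with Feature Extraction 10.7.1.1, per the file headers (version 9.5.1.1 in the submitters' processing notes). The deposited intensity of each spot is background-subtracted and spatially detrended but not normalized between arrays, per the file headers. The deposited background and outlier flags, another kind of value, were used as given.

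Spots marked as outliers on either array were left out (210), log2 signals were centred on each array's 75th percentile (287 on the positive and 446 on the negative array), and spots of a probe were averaged. Probes were named through RefSeq accessions (32993), symbols (10224) or synonyms (520) of a gene table of GRCm38; 12865 stayed unnamed. A gene took its brightest probe among those well above background on at least 1 array. A gene seen on 1 array was counted at a bound: the other array was given the lowest signal found well above its background (15.7 on the positive and 16.1 on the negative array), or the probe's own signal if that was higher. In place of a test, 2-fold and 4-fold sizes were counted. The error of a difference combines the scanner errors of both spots. As another measure of technical error, 289 replicated probes had a median SD between spots of 0.04 on the positive and 0.10 on the negative array (log2). The number of arrays limits the precision.

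Alternatives were no scaling, the percentile over spots detected on both arrays, spike-in scaling, quantile normalization, normexp with an offset of 50, no or a stricter filter on dim probes, the median over probes and the deposited value table, whose intensity values have almost the same distribution in both columns. The members and lists were chosen with earlier results of these data known. All members and all S100 genes of a second list are named, and partners by their own list. From each marker list come the highest or lowest where a result turns on it, and genes behind a sum or count. The 5 genes nearest to S100a4 are from those measured on both arrays (without clone, accession, predicted and receptor segment names). The software was limma 3.58.1 under R 4.3.3, and pandas 2.3.3 and numpy 2.4.6 under Python 3.11.15; the steps were tested on simulated data with planted differences.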

Additional observations from a re-analysis of the deposited data

How the results depend on the processing

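No paired analysis was possible because each group has 1 array, and no replicate could be left out. Without scaling, the S100a4 difference was 6.82, 4 members were at least 2-fold higher and their median was 0.94; 1960 genes were higher and 5336 lower, 6 partner genes were lower and 1 other S100 gene was higher. On the spike-in scale the S100a4 difference was 4.94, 4 members were higher and their median was -0.94, with S100a13 at -0.89, S100a11 at -0.99 and the S100a10 probes at -0.98 and -1.12; 590 genes were higher and 12686 lower, 2 partner genes were higher and 18 lower, 0 other S100 genes were higher and 1 was lower, and 2 marker lists, in place of 4, had a median at least 2-fold higher. These changes follow from the shift of all genes by -0.63 and -2.52. The S100a4 difference was 7.19 with quantile normalization, 7.22 with normexp and 7.14 in the deposited value table. With normexp 1 member was at least 2-fold lower (S100a9), in place of 3, and 1 other S100 gene was higher, as with probes detected on both arrays alone, which leaves S100a5 out; the cause was not tested for normexp. With probes detected on both arrays alone, 3 marker lists had a median at least 2-fold higher, and with the median over probes of a gene 5 had. Over all genes 3255 were higher and 2595 lower on the percentile scale. Signals under 2.5 times background limit S100a1, S100a3, S100a8 and the dimmer S100a16 probe.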
